A study of Mus musculus with 189 samples.

Results

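Scmh1, Scml2 and Sfmbt1 are Polycomb genes whose proteins carry MBT domains, and they were picked by name from the 192 assays of the deposited table, of which 156 passed quality control, the 3 members among them. Expression was measured by quantitative PCR on microfluidic chips in mouse oocytes and preimplantation embryos, and the study asked how chromatin modifiers change during the maternal-to-zygotic transition and the first lineage decision. Oocytes and zygotes came from superovulated F1 females of a C57BL/6 x DBA/2 cross, which were mated to C57BL6 males where embryos were needed, and embryos were cultured before they were taken apart with Trypsine. The main set held 11 MII oocytes (mature unfertilized eggs), 14 zygotes, 21 samples of 2-cell, 7 of 3-cell, 12 of 4-cell and 27 of 8-cell embryos, 26 blastomere samples of 16-cell embryos and 50 of 32-cell embryos. At 2, 4 and 8 cells it included 3 whole embryos each, and at 16 and 32 cells none. Differences between the earlier stages and 16 or 32 cells therefore also differ in sample type. A blastomere sample was a single cell or, at 16 and 32 cells, in 6 and 18 cases a small group of cells of 1 embryo. The labels leave the number of cells open for 3 samples of the 2-cell stage, which are called blastomeres but whose titles name an embryo and no blastomere, and for 2 samples of 1 of the 3-cell embryos. Outside this set were 3 whole embryos each at 16 and 32 cells, 1 isolated inner cell mass (ICM) group, 1 trophectoderm (TE) group and 10 samples of embryonic stem cell (ESC) RNA. No treatment or mutation was applied. The labels do not tie oocytes or embryos to females, so p-values measure the spread between oocytes or embryos, which may share a mother.

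Polycomb proteins hold developmental genes in a repressed state through modified histones. Polycomb repressive complex 1 (PRC1) ubiquitinates histone H2A and compacts chromatin, and PRC2 methylates histone H3 at lysine 27. MBT domains are pockets that bind methylated lysines. Scmh1 and Scml2 are mammalian relatives of the Drosophila protein Sex comb on midleg, an accessory partner of PRC1, and Scml2 is best known from the male germ line. Sfmbt1 is a relative of the Drosophila Sfmbt protein, which in flies forms the Pho repressive complex with Pho, the relative of mammalian Yy1. In the mouse RefSeq annotation Scmh1 is on chromosome 4, Scml2 on chromosome X and Sfmbt1 on chromosome 14.

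All levels are on a log2 scale: 30 minus the cycle threshold (Ct, the PCR cycle at which signal appears), minus the mean of the same quantity for the control genes Hnrnpr, Ssu72 and Ube2e1 in that sample. A level of 0 equals the control genes and 1 unit is a doubling, if every PCR cycle doubles the product. A gene that was not detected was deposited with a Ct of 30, and its level is then set by the control genes of the sample, between −16.99 and −9.78 for the samples of the main set in which Scml2 was not detected. Assays differ in efficiency, so levels were compared between samples and not between genes. The mean control Ct was 12.9 in MII oocytes and 17.5 in 32-cell blastomere samples, where less template was present. The labelled oocytes expressed the oocyte genes Dazl (3.49 ± 0.24, SD, n = 11) and ZP3 (1.98 ± 0.36, SD, n = 11). Dazl was detected in 1 of 26 samples at 16 cells and 8 of 50 at 32 cells. ZP3 was still detected in 24 of 26 samples at 16 cells and in 20 of 50 at 32 cells. MII oocyte replicate 9 and zygote replicates 7 and 8 lay farthest from the other samples of their stage over all genes. The tests used limma, which fits a linear model to every gene, on 58 units. Each unit was the mean over the samples of 1 oocyte or embryo, except 1 unit of 11 blastomeres of unnamed 2-cell embryos. P-values were adjusted with the Benjamini-Hochberg method over 156 genes, and a gene was called at an adjusted p below 0.05.

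**Figure D1:**
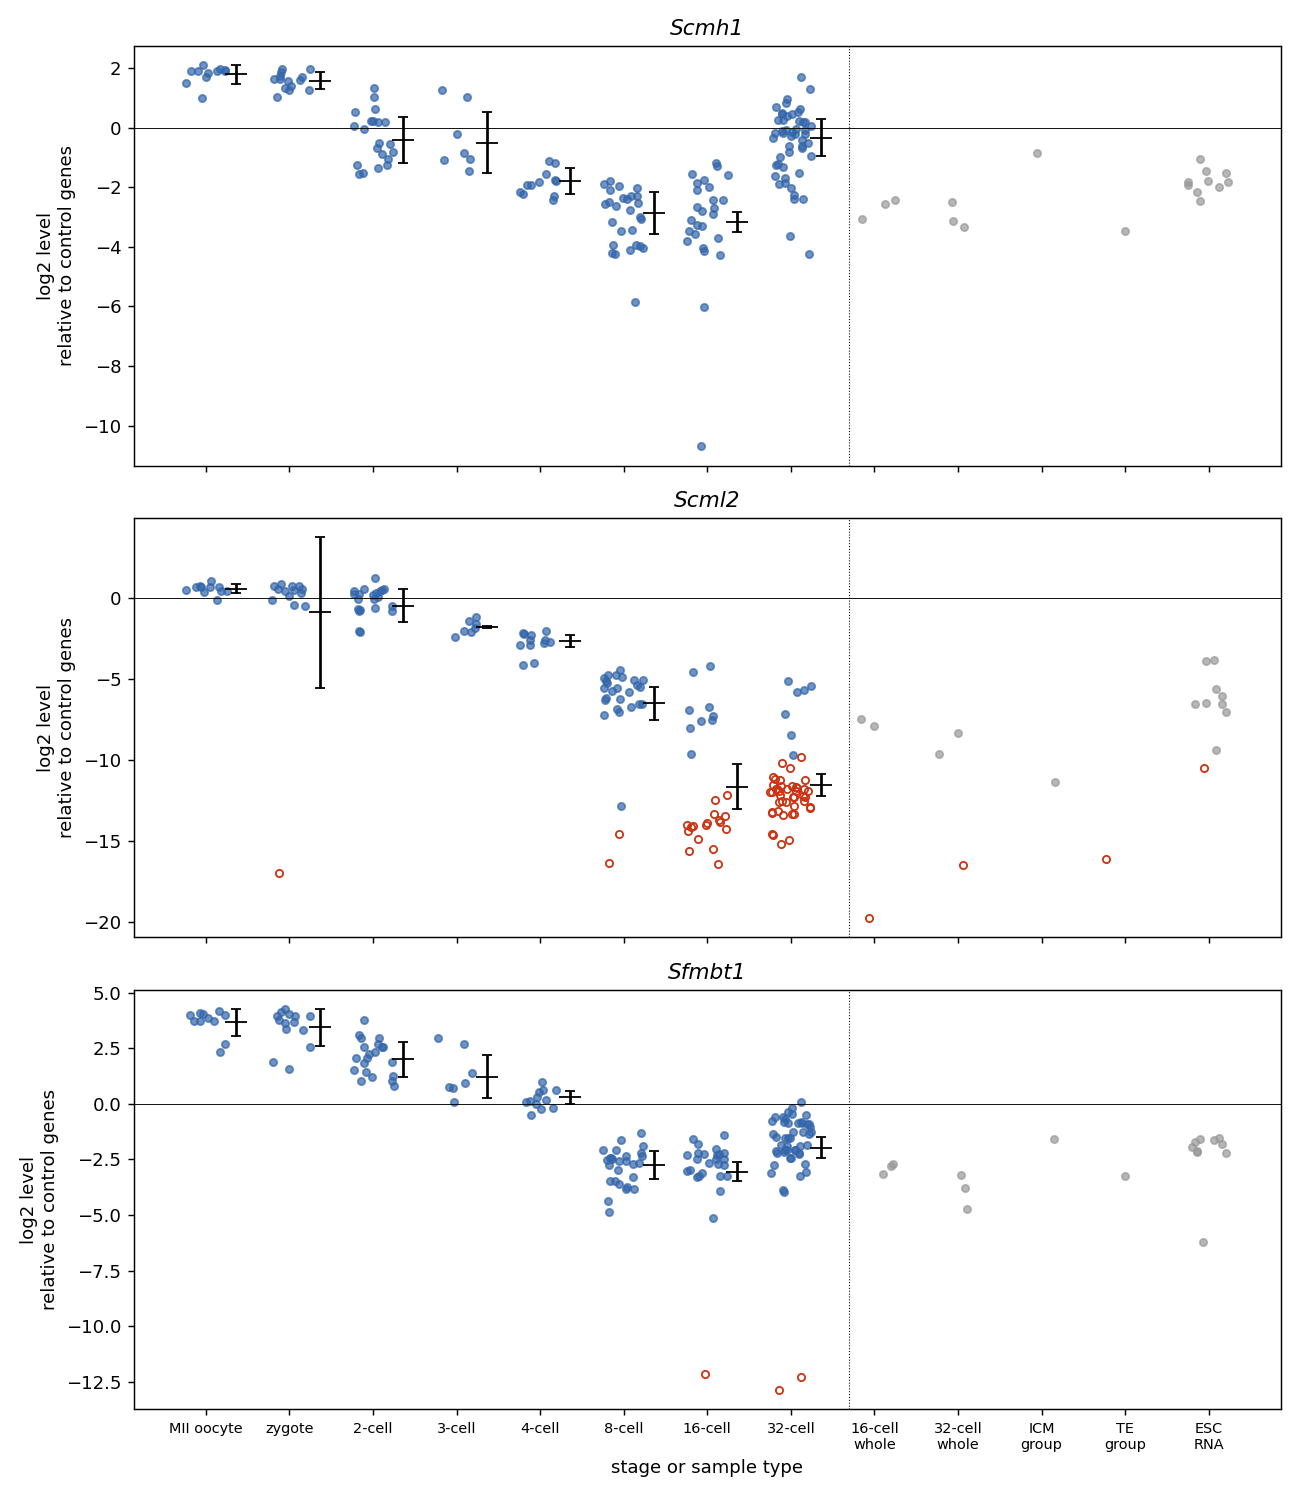
Level of each gene relative to the control genes (log2, vertical axis) in every sample, by stage or sample type. Filled points are detected, open red points were not detected (in grey columns too), black bars are the mean and SD over oocytes or embryos, and samples right of the dotted line are outside the main set; Scml2 falls from 0.58 in MII oocytes to mostly not detected, while Scmh1 is higher in 32-cell blastomeres than in 16-cell ones.

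Scmh1 was highest in oocytes, fell in steps to the 8-cell stage and was higher again in blastomeres of 32-cell embryos. It was detected in every sample of the main set. MII oocytes ranged from 0.99 to 2.10 with a median of 1.90, and zygotes from 1.01 to 1.98 with a median of 1.60. These 2 stages overlapped, with a difference of −0.22 (standard error, SE, 0.22, adjusted p = 0.738). At the 2-cell stage the 8 units had a mean of −0.42 ± 0.77 (SD), which was 1.99 below zygotes in log2 units (difference −1.99, SE 0.24, adjusted p = 2.93e-10). The highest 2-cell unit, 0.53, lay below the lowest zygote. Single samples overlapped, with 2-cell blastomere replicates 6 and 13 at 1.32 and 1.03. The mean then was −1.80 ± 0.43 (SD, n = 6) at 4 cells and −2.86 ± 0.72 (SD, n = 7) at 8 cells. Both steps passed the test, with differences of −1.38 (SE 0.30, adjusted p = 4.15e-04) and −1.06 (SE 0.30, adjusted p = 0.00293). The first of them rests on the 2-cell samples whose titles carry the mark A: with the 3 whole 2-cell embryos alone it was −0.94 (adjusted p = 0.129). The second was −0.59 (adjusted p = 0.0817) when each sample was scaled to its median over genes in place of the control genes.

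The 16-cell embryos 4 and 5 had Scmh1 means of −2.94 and −3.42, and the 8- to 16-cell difference of −0.32 did not pass (SE 0.44, adjusted p = 0.631). It was −2.20 and passed (adjusted p = 3.21e-04) with the normalized table the authors deposited, which is relative to other genes. At 32 cells the 7 embryos had means of −0.83, −0.97, −0.66, 0.28, 0.59, 0.00 and −0.79 for embryos 1 and 8 to 13 in order. None overlapped the 16-cell embryos, and the rise of 2.84 (SE 0.44, adjusted p = 5.34e-06) was called in a step in which 8.97% of all genes rose. With the deposited normalized table the rise was 1.68 (adjusted p = 0.00912), and with whole embryos added as units it was 1.75 (adjusted p = 0.00108). With whole embryos in place of blastomeres at both stages it turned to −0.31 (adjusted p = 0.681). Single 32-cell blastomeres had a mean of −0.47 ± 1.11 (SD, n = 32) and groups of blastomeres −0.67 ± 1.35 (SD, n = 18).

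Scml2 went from a signal in every MII oocyte to mostly no signal at 16 and 32 cells. MII oocytes ranged from −0.08 to 1.07 with a median of 0.69, and 13 of 14 zygotes from −0.49 to 0.91. In zygote replicate 13 Scml2 was not detected, while the highest Ct of the other zygotes was 13.4. Eif1a was the only other gene without a signal in that zygote and with one in all other zygotes. This single value gave Scml2 a standard deviation of 4.66 among zygotes, against 0.46 without it (n = 13), and widened every standard error of the gene. With all 14 zygotes the zygote to 2-cell difference was 0.42 (SE 1.07, adjusted p = 0.734), and without replicate 13, left out only once its value was known, it was −0.82 (SE 0.30, adjusted p = 0.0147). The next step, from 2 to 4 cells, was −2.19 with both sets, with an adjusted p of 0.188 with all zygotes and 7.94e-06 without replicate 13.

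All 21 samples of the 2-cell stage, all 7 of the 3-cell stage and all 12 of the 4-cell stage gave an Scml2 signal, with medians of 0.07, −1.81 and −2.65. At 8 cells 25 of 27 samples gave a signal, with a median of −5.74 over all 27. The 4- to 8-cell difference was −3.86 (SE 1.35, adjusted p = 0.0151). At 16 cells Scml2 was detected in 9 of 26 samples, 3 of embryo 4 and 6 of embryo 5, with levels from −9.62 to −4.19. At 32 cells it was detected in 7 of 50 samples, with levels from −9.65 to −5.10, and in none of the samples of embryos 10, 11 and 13. The levels of these samples lay among those detected at 8 cells, which ran from −12.84 to −4.43, apart from the highest sample at 16 cells. The 8- to 16-cell difference of −5.13 (SE 1.94, adjusted p = 0.0426) is set in part by the value that a missing signal takes: with all values below −10 set to −10 it was −2.74 (adjusted p = 0.0807). Leaving out 16-cell embryo 4 or 5 gave −4.15 (adjusted p = 0.321) or −6.12 (adjusted p = 0.129), with a single embryo left for the stage. Whether less template or a loss of the transcript underlies these values was not tested. The control Ct was 15.7 on average at 16 cells, 17.5 at 32 cells and 14.98 at 8 cells. Whole 16-cell embryos had a control Ct of 11.84, 10.15 and 10.24, with Scml2 at −7.46, −7.88 and no signal. Whole 8-cell embryos had a control Ct of 13.01, 12.54 and 13.93, with Scml2 at −6.14, −6.55 and −5.77.

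Sfmbt1 fell from the zygote to the 8-cell stage and was low from then on. MII oocytes ranged from 2.32 to 4.18 with a median of 3.87, and zygotes from 1.58 to 4.27 with a median of 3.73. The lowest oocyte was replicate 9, and zygote replicates 1, 7 and 8 lay between 1.58 and 2.57, below all 11 other zygotes at 3.32 or above. The zygote to 2-cell difference was −1.43 (SE 0.30, adjusted p = 3.37e-05), and the stages overlapped because of those zygotes and of 2-cell units of up to 3.08. Further differences were −1.70 from 2 to 4 cells (SE 0.37, adjusted p = 4.15e-04) and −3.04 from 4 to 8 cells (SE 0.38, adjusted p = 1.44e-09). With the 2-cell samples marked A left out, the 2- to 4-cell difference was −1.16 (adjusted p = 0.144). No sample of the 4-cell stage was below −0.50 and none of the 8-cell stage was above −1.30. The 2 units at 16 cells had means of −2.75 and −3.34, and the 7 units at 32 cells ranged from −2.54 to −1.19. Neither the 8- to 16-cell difference (−0.30, SE 0.54, adjusted p = 0.742) nor the 16- to 32-cell difference (1.08, SE 0.54, adjusted p = 0.203) passed. With the deposited normalized table they were −2.18 (adjusted p = 6.05e-04) and −0.079 (adjusted p = 0.910).

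From MII oocytes to the 16- and 32-cell units together, Scmh1 differed by −2.76 (SE 0.25, adjusted p = 7.33e-15), Scml2 by −12.12 (SE 1.09, adjusted p = 9.88e-15) and Sfmbt1 by −5.87 (SE 0.31, adjusted p = 4.02e-24). The size for Scml2 reflects the value given to samples without a signal. All 3 genes were lower, a direction in which 46.8% of all genes were called, against 37.8% called higher. Per step, 2 of the 3 genes fell from zygote to 2 cells (39.1% of all genes fell), 2 from 2 to 4 cells (25.6%), 3 from 4 to 8 cells (35.9%) and 1 from 8 to 16 cells (8.33%). From oocyte to zygote limma called none of the 3 and 1.92% of all genes, no member had an unadjusted p below 0.05 and the smallest was 0.142. Ordered by unit means, Scmh1 ran MII oocyte, zygote, 32-cell, 2-cell, 3-cell, 4-cell, 8-cell and 16-cell. Neighbours in this order differed between zygote and 32-cell, 3-cell and 4-cell (adjusted p = 0.0487) and 4-cell and 8-cell. The other 4 pairs did not differ beyond their spread. Of the 3-cell embryos, embryo 1 was at 0.70 and embryos 2 and 3 at −1.12 and −1.07. The 4-cell units ran from −2.28 to −1.13. For Scml2 the order was MII oocyte, 2-cell, zygote, 3-cell, 4-cell, 8-cell, 32-cell and 16-cell, with 4-cell and 8-cell and then 8-cell and 32-cell as the pairs that passed. The place of the zygote rests on replicate 13, whose missing signal lowered the zygote mean to −0.87 and widened the standard errors. By median, zygotes (0.48) lay above 2-cell units (−0.02). For Sfmbt1 the order was MII oocyte, zygote, 2-cell, 3-cell, 4-cell, 32-cell, 8-cell and 16-cell, and the pairs that passed were zygote and 2-cell, and 4-cell and 32-cell.

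Whole embryos gave a different level of Scmh1 and Sfmbt1 at 32 cells from that of the blastomere samples. The 3 whole 32-cell embryos had Scmh1 levels of −2.49, −3.35 and −3.13, below the mean of each of the 7 embryos taken apart. The 3 whole 16-cell embryos had −3.07, −2.43 and −2.55, among the values of the 16-cell blastomeres. Whole embryos minus blastomeres of 32-cell embryos gave a difference of −2.65 for Scmh1 (SE 0.37, adjusted p = 4.34e-08) and −1.93 for Sfmbt1 (SE 0.46, adjusted p = 5.38e-04), in a comparison that called 32.7% of all genes lower. At 2, 4, 8 and 16 cells no such difference of the 3 genes passed, with 22.4%, 3.21%, 5.77% and 4.49% of all genes called and the smallest unadjusted p of the members at 0.0782. Scml2 in whole 2-cell embryos was −2.01, −2.07 and −0.62, below the other 2-cell units at −0.07 to 0.55. The missing signal of zygote replicate 13 was in this fit and widened the SE of Scml2. The other 2-cell units all carry the mark A in their titles and the whole embryos do not. Sample type and mark therefore cannot be told apart at 2 cells. Between whole embryos of 16 and 32 cells, Scmh1 changed by −0.31 (SE 0.43, adjusted p = 0.654), in a comparison that called 30.1% of all genes. Sfmbt1 levels were −2.71, −2.79 and −3.17 in whole 16-cell and −3.78, −4.73 and −3.18 in whole 32-cell embryos (difference −1.01, SE 0.54, adjusted p = 0.163). Scml2 was detected in 2 of 3 whole embryos at each of these stages, at levels of −7.46 and −7.88 at 16 cells and −8.30 and −9.62 at 32 cells. This comparison was added after the levels had been seen.

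The blastomere samples and the whole embryos of the 32-cell stage also differed in lineage genes. A lineage score was formed by subtracting the average of 8 core TE genes from that of 12 core ICM genes, and in this difference the control genes cancel. Both lists are those the study drew from these samples. It was above 0 in 40 of the 50 blastomere samples at 32 cells and in 9 of 26 at 16 cells. The 3 whole 32-cell embryos had scores of −2.79, −3.28 and −3.51, and the whole 16-cell embryos −0.40, −0.58 and −1.12. In embryos 10, 11 and 12 every sample had a positive score, from 2.59 upwards. The TE genes Gata3 and Cdx2 were detected in 26 and 34 of the 50 samples. Without embryos 10, 11 and 12 the Scmh1 rise from 16 to 32 cells was 2.36 (SE 0.45, adjusted p = 5.03e-04). The part of these scores in the rise was not tested.

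On the raw scale of 30 minus Ct, without control genes, whole oocytes and embryos show their transcript content only if all reactions had an equal yield. That was not tested, and the control genes ranged from 13.94 to 16.31 among the 3 whole 2-cell embryos. In whole embryos, fewer cells with the transcript and less RNA per cell cannot be told apart. Scmh1 was between 17.97 and 19.13 in MII oocytes and between 14.16 and 14.93 in 2-cell embryos (difference −4.24, SE 0.32, adjusted p = 1.04e-13). It was between 13.81 and 14.52 at 4 cells, 13.96 and 14.36 at 8 cells, 15.09 and 17.42 at 16 cells, and 14.00 and 14.90 at 32 cells. Neither the 2- to 8-cell difference (−0.51, SE 0.41, adjusted p = 0.346) nor the 8- to 32-cell difference (0.25, SE 0.41, adjusted p = 0.656) passed. Sfmbt1 differed by −3.81 from oocyte to 2-cell embryo (SE 0.40, adjusted p = 1.97e-10) and by −2.73 from 2 to 8 cells (SE 0.50, adjusted p = 4.19e-05). Its 8- to 32-cell difference was −0.75 (SE 0.50, adjusted p = 0.236), and −1.45 (adjusted p = 0.0214) without the third whole 32-cell embryo. Scml2 went from 17.66 ± 0.30 (SD, n = 11) in oocytes to 13.91 ± 0.52, 13.44 ± 0.06 and 10.68 ± 0.34 (SD, n = 3 each) at 2, 4 and 8 cells, with no overlap between oocytes and 2-cell embryos or between 4 and 8 cells. Its oocyte to 2-cell difference of −3.75 had an adjusted p of 0.134 with all zygotes in the fit and 0.0115 without zygote replicate 13. From oocyte to 2-cell embryo 61.5% of all genes were called lower, from 2 to 8 cells 12.8% were called lower, and from 8 to 32 cells 40.4% were called in either direction. Whole 16-cell embryos gave higher signals than 8- and 32-cell embryos for Scmh1 (16.57 ± 1.29, SD, n = 3), for Sfmbt1 (16.37 ± 0.82, SD, n = 3) and for the control genes, which were at 19.26 ± 0.95 (SD, n = 3) against 16.84 ± 0.71 at 8 cells and 17.35 ± 0.79 at 32 cells.

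**Figure D2:**
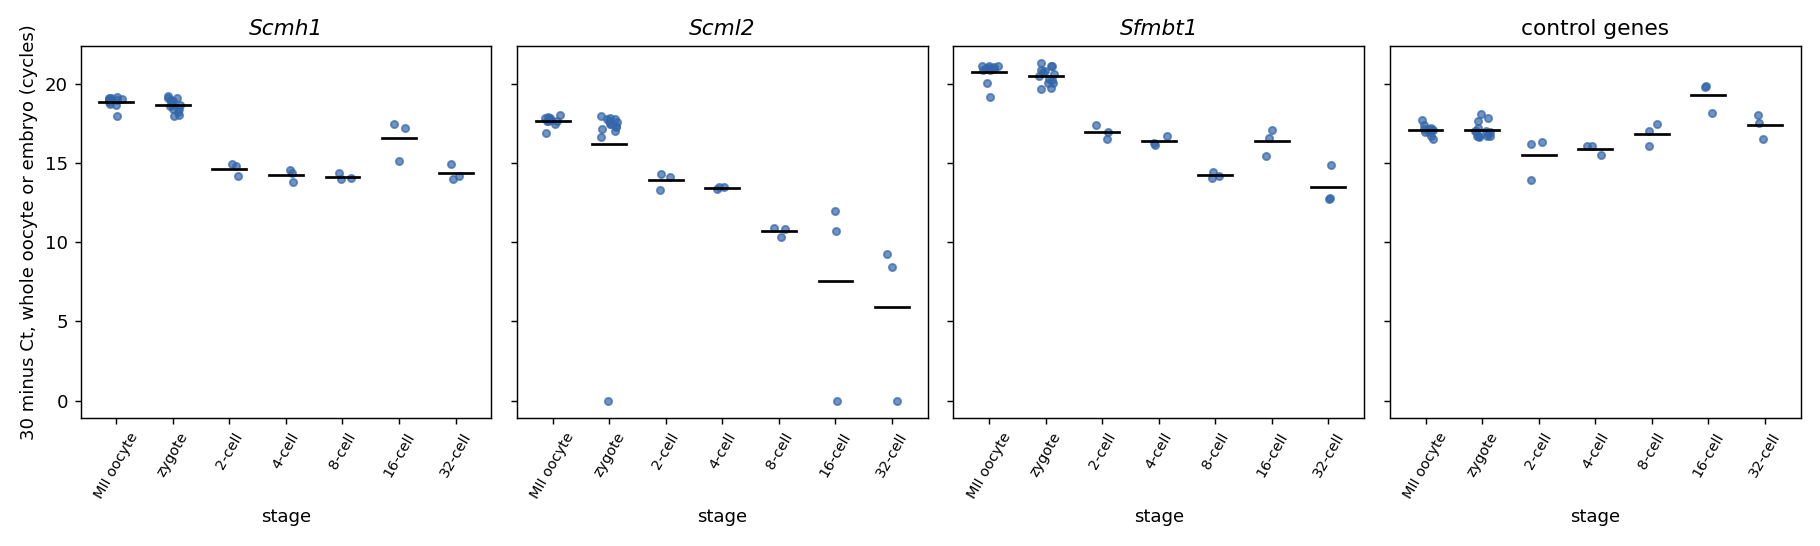
Raw signal (30 minus Ct, in cycles, vertical axis) of the 3 genes and of the mean of the control genes in whole oocytes, zygotes and embryos, by stage, where a point is 1 oocyte or embryo, a bar is the mean and 0 marks no signal. Scmh1 drops between zygote and 2 cells and is then near 14 apart from the 16-cell embryos, in which the control genes are also higher.

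Within 16- and 32-cell embryos, Scmh1 was higher in blastomeres with more ICM and less TE transcript. The slope of each gene on the lineage score was fitted per embryo, with Scmh1 left out of its own score, and averaged over 2 16-cell and 7 32-cell embryos with weights for the spread of the score. The Scmh1 slope was 0.135 log2 units per unit of score (SE 0.020, adjusted p = 7.06e-04) and was positive in 8 of 9 embryos. It was 0.181 and 0.162 in the 16-cell embryos 4 and 5, and 0.097, 0.083, 0.163 and 0.184 in the 32-cell embryos 1, 8, 9 and 13, whose scores spanned both signs. The 3 other embryos, 10, 11 and 12, had slopes of −0.261, 0.392 and 0.165 over a narrow range of scores. With equal weights for all embryos the slope was 0.130 with an adjusted p of 0.415. The study placed Scmh1 among its core ICM genes from these same samples, so the relation is not independent evidence of its direction. In this test 17.3% of all genes were called with a positive slope and 12.2% with a negative one.

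The Sfmbt1 slope of 0.167 (SE 0.052, adjusted p = 0.0357) passed, with a positive sign in 6 of 9 embryos. Sfmbt1 gave no signal in 3 samples, which had lineage scores of −8.08 in 32-cell embryo 1, −6.18 in 32-cell embryo 8 and −1.22 in 16-cell embryo 5. With samples without a signal left out, the slope was 0.049 (SE 0.021, adjusted p = 0.0892). It also lost the call without embryo 1 (0.120, adjusted p = 0.159) or embryo 8 (0.121, adjusted p = 0.102), and by a narrow margin without embryo 9 (adjusted p = 0.0512), without embryo 12 (adjusted p = 0.0518) or with the deposited normalized table (0.152, adjusted p = 0.0601). The Scml2 slope was 0.015 (SE 0.046, adjusted p = 0.849). Its slopes were −0.126 and −0.244 in the 16-cell embryos and between −0.297 and 0.217 at 32 cells, and the difference between the stages, 0.28, did not pass (SE 0.07, adjusted p = 0.0995), in a test that called 0.641% of all genes. The differences between stages for Scmh1 (−0.045, SE 0.048, adjusted p = 0.787) and Sfmbt1 (0.17, SE 0.12, adjusted p = 0.563) did not pass either. As descriptions over the 76 samples, which share embryos, Spearman's rho with the score was 0.47 for Sfmbt1 and 0.15 for Scml2. Within stages it was lower, at 0.10 for Sfmbt1 and −0.19 for Scml2 over the 26 samples at 16 cells and at 0.27 and 0.09 over the 50 at 32 cells. The mean control Ct also varied with the score, with a rho of 0.38 over all 76 samples and a Pearson r of 0.15 within embryos.

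**Figure D3:**
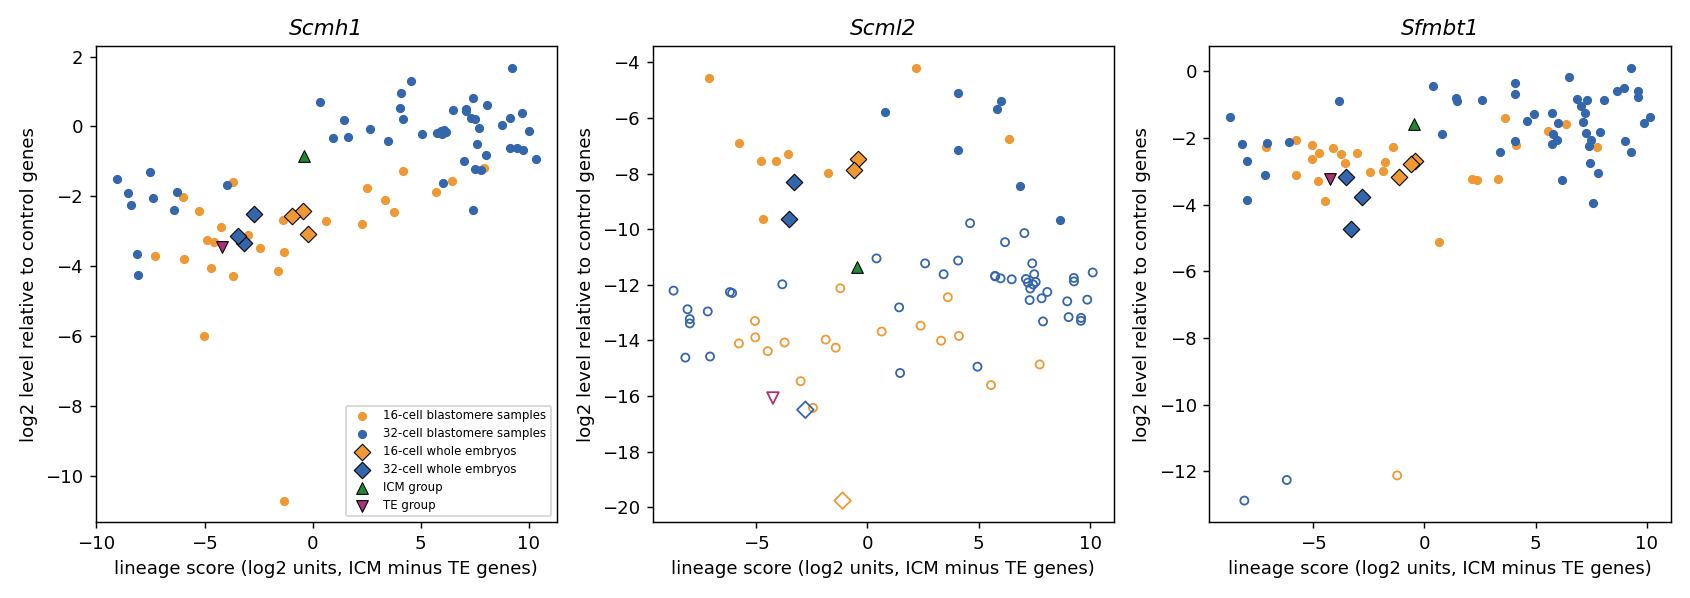
Level of each gene relative to the control genes (log2, vertical axis) against the lineage score (log2 units, horizontal axis; Scmh1 is left out of the score in its own panel) in 76 blastomere samples, 6 whole embryos and the isolated ICM and TE groups. Open symbols were not detected; whole 32-cell embryos lie at scores from −3.51 to −2.79 and at Scmh1 levels from −3.35 to −2.49.

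**Figure D4:**
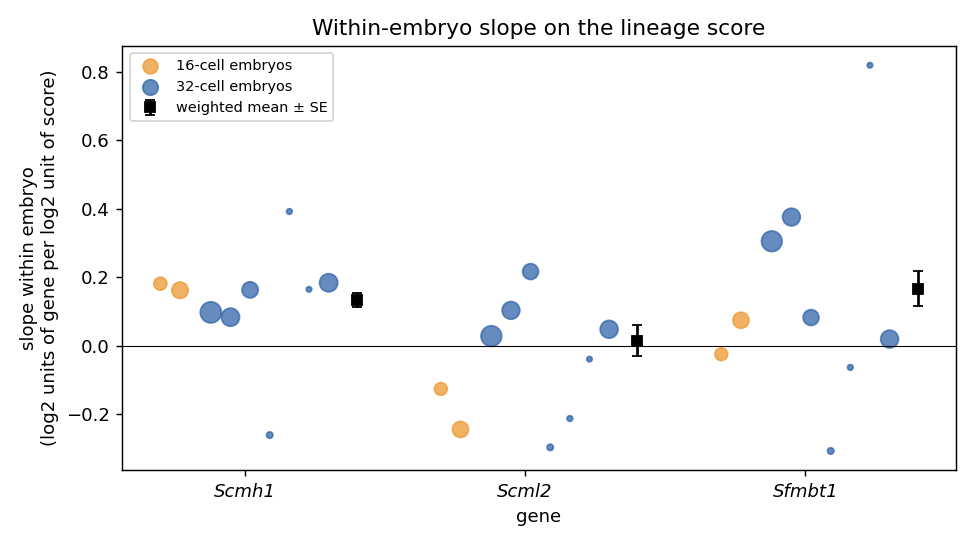
Slope of each gene on the lineage score within each of 9 embryos (vertical axis, log2 units of the gene per log2 unit of score), with point area growing with the spread of scores in the embryo, and the weighted mean ± SE as black squares. Scmh1 slopes lie above 0 in all but 1 small point. The largest Sfmbt1 points are those of 32-cell embryos 1, 13 and 8, with slopes of 0.305, 0.020 and 0.376.

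The isolated ICM and TE groups of 32-cell embryos, 1 sample each, gave values outside those 76 samples, with no replicates and hence no test. The Scmh1 level was −0.85 in the ICM group and −3.46 in the TE group, a difference of 2.61 log2 units. Sfmbt1 was −1.60 and −3.23, a difference of 1.64. Scml2 had a Ct of 24.26 in the ICM group and no signal in the TE group. A difference of more than 2 units toward the ICM group was reached by 10.3% of all genes, and the median over all genes was 0.47. The labels of the groups were set against their markers: the 11 core ICM genes other than Scmh1 were all higher in the ICM group and all 8 core TE genes were lower in it. More than 2 units were reached by 6 of these ICM genes and 0 of the TE genes. The TE genes Tead4 and Id2 differed by only −0.003 and −0.32. The ICM gene Pou5f1 differed by 0.47, no more than the median over all genes. Both groups held TE transcripts, with Cdx2, a TE transcription factor, at 0.43 in the ICM group and 1.84 in the TE group. The lineage score was −0.48 in the ICM group and −4.24 in the TE group, while 40 of the 50 blastomere samples were above 0.

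The spread between sister blastomeres of 1 embryo was set against that of repeated reactions of purified RNA. The SD of 3 reactions of 200 pg ESC RNA was 0.08 for Scmh1, 0.51 for Scml2 and 0.14 for Sfmbt1. These reactions held more template, with a control Ct of 13.81 to 14.21. The mean control Ct was 15.7 in blastomere samples of 16 cells and 17.5 in those of 32 cells. Within embryos, the SD between single blastomeres for Scmh1 was 0.36 at 4 cells (9 cells of 3 embryos), 0.83 at 8 cells (24 cells of 4 embryos), 2.18 at 16 cells (20 cells of 2 embryos) and 1.00 at 32 cells (32 cells of 7 embryos). The 16-cell value holds 1 blastomere of embryo 5 at −10.70, in which Sfmbt1 was −2.98. For Sfmbt1 the SD was 0.47 at 4 cells, 0.69 at 8 cells, 2.31 at 16 cells and 3.09 at 32 cells, and the latter 2 hold the cells without a signal. For Scml2 it was 0.82 at 4 cells and 3.08 at 8 cells, where 2 of 24 single cells had no signal. No repeated reactions of single blastomeres were measured, so the spread of reactions with that little template is not known. When ESC RNA was diluted from 200 to 25 pg, the raw signal changed per doubling by 0.94 for Scmh1, 1.17 for Sfmbt1, 0.04 for Scml2 and 1.13 for the control genes, where 1 is proportional. The Scml2 slope describes values without an order by input, with Ct of 20.74 at 200 pg, 25.17 at 100 pg, 23.46 at 50 pg and 21.45 at 25 pg, and in the series from 32 to 800 pg it was not detected at 32 pg. Relative to the control genes, ESC RNA had a median of −1.82 for Scmh1, −6.50 for Scml2 and −1.88 for Sfmbt1 over 10 samples.

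The other Polycomb genes of the table, 16 in a list by complex, were mixed in direction. From MII oocyte to 16 and 32 cells 11 were lower and 5 higher, where 46.8% of all genes were called lower and 37.8% higher, with a median difference of −1.73 against −0.35 over all genes. The PRC1 genes Pcgf1 (−7.28, SE 0.28, adjusted p = 2.35e-29), Bmi1 (−4.97, SE 0.21, adjusted p = 2.93e-28) and Phc2 (−4.64, SE 0.22, adjusted p = 1.07e-25) fell, and Cbx6 (6.37, SE 1.80, adjusted p = 0.00118) and Ring1 (4.07, SE 0.96, adjusted p = 1.39e-04) rose. The mean of Cbx6 in MII oocytes was −12.43, below the −10 that the study set as its threshold of expression, so the size of its rise is uncertain. Phc2 is another PRC1 protein with the SAM domain through which Scm relatives bind. Yy1 rose by 3.64 (SE 0.98, adjusted p = 6.91e-04) where Sfmbt1 fell. L3mbtl3, another MBT-domain gene, was at −4.88 ± 0.56 in MII oocytes (SD, n = 11) and differed by −1.54 (SE 0.56, adjusted p = 0.00957). It gave no signal in 21 of the 76 samples at 16 and 32 cells, and the 55 with a signal had a median of −3.89, above the median of −4.94 in MII oocytes. From 4 to 8 cells 6 of the 16 fell and 2 rose, where 35.9% of all genes fell and 13.5% rose. From 16- to 32-cell blastomeres only the PRC2 catalytic gene Ezh1 passed (1.05, SE 0.34, adjusted p = 0.0343), where 8.97% of all genes were called higher. The study also counts Ezh1 as a core ICM gene. In whole 32-cell embryos against blastomeres 5 of 7 PRC2 genes, Ezh1, Ezh2, Eed, Suz12 and Jarid2, were lower, where 32.7% of all genes were called lower, with Ezh1 at −3.35 (SE 0.28, adjusted p = 1.34e-14), and none of the 7 PRC1 genes was called, with the smallest adjusted p of 0.148. On the lineage score Ezh1 had a positive slope (0.151, SE 0.024, adjusted p = 9.97e-04) and the PRC2 partner Mtf2 a negative slope (−0.088, SE 0.017, adjusted p = 0.00288). The other 14 were not called, where 17.3% of all genes were called with a positive slope and 12.2% with a negative one. L3mbtl3 had a slope of −0.128 (SE 0.080, adjusted p = 0.271).

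The genes with the most similar stage profile were named by Pearson's r over the 8 stage means, a description over few points that share the control genes. For Scmh1 they were Phf2 (0.964), Phf19 (0.957) and Pecam1 (0.951), for Scml2 Brdt (0.990), Jhdm1d (0.982) and Prdm4 (0.968), and for Sfmbt1 Mecom (0.980), Suv39h2 (0.979) and Kdm4a (0.979). Among the members r was 0.876 between Scmh1 and Sfmbt1, 0.903 between Scml2 and Sfmbt1 and 0.631 between Scmh1 and Scml2. Over the 76 blastomere samples, Spearman's rho was highest with Tet1 (0.829), Yap1 (0.826) and Trim28 (0.773) for Scmh1, and with Mll2 (0.612), Pou5f1 (0.593) and Tet1 (0.587) for Sfmbt1. These values pool 2 stages between which Scmh1 differs. Within the 16- and the 32-cell samples, rho with Scmh1 was 0.518 and 0.660 for Tet1, 0.657 and 0.656 for Yap1, and 0.527 and 0.615 for Trim28. For Sfmbt1 it was between 0.174 and 0.214 at 16 cells and between 0.364 and 0.497 at 32 cells. For Scml2 no gene passed 0.399 (Setd7), and 60 of its 76 values are samples without a signal.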

How the data were processed

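The authors prepared cDNA of each sample with 18 cycles of preamplification with all primers, ran it on BioMark chips, read the Ct with the Fluidigm software and removed assays without a specific signal. They deposited the Ct of each assay, a score in PCR cycles, and a normalized table in log2 units, which equals 30 minus the Ct relative to Gapdh, Hspa8 and Lmnb1. No genome build applies and none is named in the sources used here. Here the Ct was set relative to Hnrnpr, Ssu72 and Ube2e1, the control genes named in the methods. Of 192 assays, 36 marked as failed were not used; of 189 samples, 3 that the study left out entered only an alternative. Stages, content and slopes were tested with limma 3.58.1 (R 4.3.3) over 156 genes with Benjamini-Hochberg adjustment, and tested on simulated data; other values used Python 3.11.15, pandas 2.3.3 and scipy 1.17.1. PCR gives no read depth, and the control Ct describes the amount measured. The genes named are the 3 members, the control genes, a Polycomb list, the lineage genes and the 3 genes most like each member; oocyte markers are named as a check. The members and lists were chosen with earlier results of these data known. P-values are two-sided. Alternatives covered the control genes, the deposited normalized table, the value of undetected genes, weights, blocks and left-out samples; those on zygote replicate 13, outlying samples, 2-cell samples marked A, 32-cell embryos 10 to 12, whole embryos and samples without a signal were chosen after seeing the data. A planned comparison of the 3 proteins was not run. The 11 blastomeres of unnamed 2-cell embryos formed 1 unit. Equal replicate numbers in the labels did not pair samples: deviations from the group means in 411 such pairs had a median correlation of −0.00504.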

Additional observations from a re-analysis of the deposited data

Results flagged for a closer look

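The lowest of the 10 ESC RNA samples for Sfmbt1, at −6.22, lay far from the next lowest at −2.22 and is the sample of 32 pg, in which Scml2 was not detected. Among the 9 embryos, the Scmh1 slope on the lineage score of 32-cell embryo 10, −0.261, lay far below the next lowest, 0.083, and rests on 5 samples. These were 2 of 18 groups of values tested for a lone extreme, where chance gives about 1 in 20.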

How the results depend on the processing

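Of 697 alternative values of 36 results, 649 kept their direction and side of the threshold. For Scml2, the zygote to 2-cell difference turned to −0.084 without Ube2e1, −0.029 with the deposited table, −0.079 with values below −10 set to −10 and −0.69 without the 2-cell samples marked A, and its 16- to 32-cell difference to −0.055 without Hnrnpr, −0.051 without Ube2e1, −0.13 with the sample median, −1.04 with the deposited table, −0.70 with values set to −10 and −0.055 without embryos 10 to 12. With the replicate block the latter was −0.021 and the Scml2 2- to 4-cell difference −2.56 (called), and the block changed no other call; equal numbers in the labels were not pairs. The 2- to 4-cell difference was also called with values set to −10 (−2.19). Without the 2-cell samples marked A, calls were lost at 2 to 4 cells for Scmh1 (−0.94) and Sfmbt1 (−1.16) and at 8 to 16 cells for Scml2 (−5.13), which was also lost with values set to −10 (−2.74). Scmh1 lost 4 to 8 cells with the sample median (−0.59). With the deposited table the 8- to 16-cell differences of Scmh1 (−2.20) and Sfmbt1 (−2.18) were called and the 16- to 32-cell difference of Sfmbt1 was −0.079. With whole embryos in place of blastomeres, Scmh1 was 0.18 from 8 to 16 and −0.31 from 16 to 32 cells, Sfmbt1 −1.01 from 16 to 32 cells, and Scml2 −3.86 from 4 to 8 cells (call lost). With equal weights the slopes were 0.130 for Scmh1, 0.142 for Sfmbt1 (both calls lost) and −0.058 for Scml2, whose slope in single cells was −0.0059. The Sfmbt1 slope lost its call with the deposited table (0.152), without Hnrnpr (0.169), without Ube2e1 (0.152) and without undetected values (0.049). No Scml2 slope could be had from detected values alone. The causes were not tested.

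Leaving out 1 unit at a time gave ranges for Scml2 of −0.82 to 0.42 from zygote to 2 cells, −2.19 to −2.19 from 2 to 4 cells (called without zygote replicate 13), −6.12 to −4.15 from 8 to 16 cells (lost without embryo 4 or 5) and −0.87 to 1.10 from 16 to 32 cells. In whole embryos they were −3.94 to −3.45 for Scml2 from oocyte to 2 cells and −6.48 to −1.86 from 8 to 32 cells (both called without zygote replicate 13), −0.023 to 0.43 for Scmh1 and −1.45 to −0.37 for Sfmbt1 from 8 to 32 cells. The slopes ranged from −0.018 to 0.060 for Scml2 and from 0.120 to 0.20 for Sfmbt1.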
